A study of Homo sapiens with 24 samples.

Results

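SRSF1, SRSF2, SRSF3, SRSF4, SRSF5, SRSF6, SRSF7, SRSF11, TRA2A and TRA2B encode splicing factors that carry domains rich in arginine and serine (SR factors). Their rows were taken by gene symbol from tables of exonic and intronic fragments. All 10 were among the 60308 genes of the exon table and 9 were among the 37473 genes of the intron table, and 7 of these had any intronic count. SRSF2 has no intron entry in the authors' gene models, and the entries of SRSF1 and SRSF6, with 414 and 3260 intronic bases, held 0 counts in all 24 libraries. Both genes overlap other annotated genes, and how the authors' counting treated fragments that touch 2 genes is not given in the sources used here, so these 0 values are not read as absence of intronic RNA.

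The cells were U2OS, an osteosarcoma line of human origin. Ctrl cells received 0.12% DMSO over 2 h, and NaAsO2 cells received 500 µM sodium arsenite, an inducer of oxidative stress and of stress granules (SGs), for 60 min. RK-33 cells received 6 µM of RK-33, an inhibitor of the RNA helicase DDX3, with a pre-treatment of 1 h, and Combo cells received both compounds at these doses. Each treatment had 3 replicates, and each of the 12 lysates was cleared of nuclei and spun again to give a soluble supernatant and an insoluble pellet rich in RNP granules, which makes 24 rRNA-depleted libraries in 8 groups. The spin enriches for granules without purifying them, so a transcript in the pellet need not have been in a granule, and all groups come from a single cell line.

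SR proteins bind exonic enhancers through RNA recognition motifs and recruit the splicing machinery through their arginine-serine domains, whose phosphorylation by SRPK and CLK kinases sets their location and activity. The SR genes are known for regulating themselves: an ultraconserved poison exon with a premature stop codon, or a retained intron, is included when the protein is abundant, and the resulting transcript is degraded by nonsense-mediated decay or kept in the nucleus. Intronic fragments of these genes can therefore come from unspliced RNA, from retained introns or from alternative transcripts, and a total over a gene does not tell these apart.

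In the counting scheme a base is intronic only where no annotated exon lies, so annotated poison exons and annotated retained introns count as exon. The paper describes merging all exons before their subtraction from the genes. A base under an exon of another gene alone can therefore count as neither. SRSF2 had 1329 bases in canonical introns, with 1086 counted as exon and 0 as intron. With GENCODE release 44 on GRCh38, whose gene spans equal those of the authors' release for all 10 genes, the share of the introns of the canonical transcript that falls under exon counts was 81.7% for SRSF2 (chr17:76734115-76737333) and 75.4% for SRSF5 (chr14:69726900-69772005). It was 45.7% for TRA2B (chr3:185914558-185938103), 41.1% for SRSF3 (chr6:36594353-36605600) and 34.3% for SRSF1 (chr17:58000919-58007346). It was 28.8% for SRSF7 (chr2:38743599-38751494), 20.4% for SRSF4 (chr1:29147743-29181900) and 17.3% for SRSF6 (chr20:43457893-43466046), and lowest for SRSF11 (chr1:70205682-70253052) at 15.9% and TRA2A (chr7:23504780-23532041) at 6.57%. Intron counts of SRSF5 came from 39749 bases, of which only 827 lie in introns of the canonical transcript and the others lie upstream, in introns of longer transcripts.

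**Figure D1:**
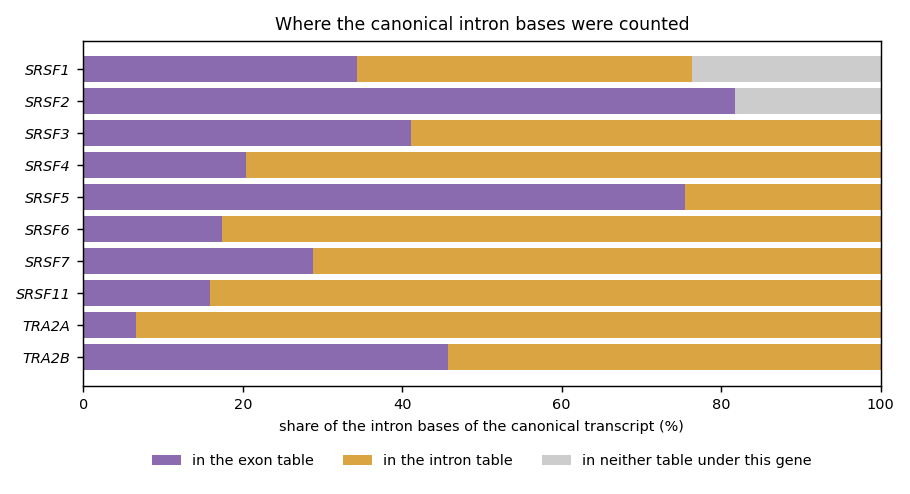
Stacked bars of the introns of each gene's canonical transcript, as percent of intronic bases that the gene models count as exon, as intron, or as neither. SRSF2 and SRSF5 have most of their intronic bases under exon counts, and TRA2A has the least.

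An annotated poison exon with its stop codon inside was found for 7 of the 10 genes, and every base of these exons was counted as exon. The windows around the stop codons are shown because they are the sequence that separates a productive from a decay transcript, and because a rise of such transcripts would enter the exon counts below and not the intron counts. Each window is written in the direction of the gene, and capitals mark the premature stop codon.
SRSF3, intron 3, 456-base exon, plus strand, chr6:36599840-36599866: ctcaccaccctcTGAatctgcattagc
SRSF7, intron 3, 449-base exon, minus strand, chr2:38749307-38749333: agtcagtcgcctTGAttcagaatgtca
SRSF4, intron 1, 175-base exon, minus strand, chr1:29165997-29166023: ttacaaggaaaaTGAgtgaatgtggga
SRSF6, intron 2, 268-base exon, plus strand, chr20:43459290-43459316: gccttttgccatTAGacgcagggtgat
SRSF11, intron 2, 117-base exon, plus strand, chr1:70231894-70231920: gcttttgaaagtTGAgagcacacccct
TRA2A, intron 1, 301-base exon, minus strand, chr7:23522277-23522303: agattggtcagaTAGaagcacttgaat
TRA2B, intron 1, 276-base exon, minus strand, chr3:185931760-185931786: ctcaggaataagTGAagctgaaatttg

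The poison exons of the TRA2A and TRA2B paralogs also share their 3' splice site. Of the 23 bases around it, 20 are identical, and capitals mark the AG that ends the intron.
TRA2A, minus strand, chr7:23522430-23522452: aatgttctttttccattaAGgtt
TRA2B, minus strand, chr3:185931850-185931872: cctgttctttttctattaAGgtt
In SRSF7 all 875 bases of intron 3 count as exon, so the poison exon and a fully retained intron 3 could not be separated from the spliced mRNA, and the SRSF7 intron counts come from its other introns.

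A library held 10968059 to 19799530 exon plus intron counts. By log2 exon CPM, the mean correlation with the other libraries of the group was 0.962, 0.967 and 0.935 in NaAsO2 insoluble replicates 1, 2 and 3. It was 0.98 or more in every library of the other groups. Intronic counts made up 20.6% ± 2.53 of the counts in Ctrl soluble libraries and 33.4% ± 2.86 in Ctrl insoluble libraries (SD, n = 3), and 15.8% ± 2.74 and 21.4% ± 3.72 after NaAsO2, 17.9% ± 4.64 and 35.8% ± 1.47 after RK-33, and 21.99% ± 5.62 and 27.5% ± 4.47 after Combo. Replicate 3 of the NaAsO2 insoluble group stood apart, with 5.79% of its exon counts on RN7SL1, the RNA of the signal recognition particle, against at most 1.23% in the other insoluble libraries, and in replicate 3 of Combo and replicate 2 of NaAsO2 the soluble library was more intronic than the insoluble library of the same number. Of the osteoblast and mesenchymal markers checked, VIM, COL1A1, COL5A1, SPARC and RUNX2 were present and COL1A2 was near 0, and the median levels of the blood markers PTPRC, CD14, CD3E and HBB in a fraction were at most 1.31 CPM. Of the epithelial markers, KRT8 (medians of 288 CPM soluble and 171 CPM insoluble) and KRT18 (248 and 110 CPM) were present, EPCAM and CDH1 had medians of 2.04 to 5.19 CPM, and KRT19 was near 0. The endothelial markers PECAM1, VWF and CDH5 had medians of 0.640 to 14.7 CPM, the highest that of VWF in the pellet. Counting used no strand. Fragments that touch an SR gene and one of the overlapping or antisense genes ENSG00000228988 (SRSF11), ENSG00000277916 (SRSF4), ENSG00000288000 (SRSF6), ENSG00000266086 and ENSG00000279069 (SRSF1), and MFSD11, MIR636 and ENSG00000267168 (SRSF2) may have been counted for the SR gene or dropped, so the exon levels of these genes are uncertain there. Fewer cells with a transcript and less of it per cell cannot be told apart in bulk lysates, and all levels are relative to the library.

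Per kilobase of annotated exon, and relative to all exon plus intron counts of a library, the Ctrl soluble level was highest for SRSF2, a protein of nuclear speckles, at 51.8 ± 1.80 CPM (counts scaled to a common library size) per kb (SD, n = 3). SRSF3 stood at 48.9 ± 0.633 and SRSF5 at 48.5 ± 3.63 CPM per kb. The SRSF5 libraries, at 44.5 to 51.5, overlapped those of SRSF2 and SRSF3. SRSF6 at 34.0 ± 1.65 and SRSF7 at 33.5 ± 0.710 CPM per kb followed and did not differ beyond their spread. TRA2A stood at 19.1 ± 1.05, TRA2B at 14.2 ± 0.490, SRSF1 at 12.9 ± 0.206, SRSF11 at 11.7 ± 1.24 and SRSF4, the longest SR protein of the set, at 8.66 ± 0.455 CPM per kb, and of these only SRSF1 and SRSF11 overlapped. Annotated exon length includes bases of canonical introns that count as exon. These were 6506 of 8806 bases in SRSF4, 8817 of 13084 in TRA2B, 1671 of 3516 in TRA2A and 338 of 5781 in SRSF1. The order of genes per kb therefore depends on the annotation and is not a ranking of spliced mRNA. The order of the density of intronic counts per base, as percent of the exonic density, was another one. It was 33.0% in TRA2B, 25.5% in SRSF4, 15.7% in TRA2A and 15.4% in SRSF11 in the same libraries. SRSF3 had 11.5%, SRSF7 10.3% and SRSF5 0.361%. Intron bases that count as exon enter the exonic density, so this order depends on the annotation as well. For SRSF5, only 827 of the 39749 intronic bases lie in canonical introns.

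The comparison of fractions asks which transcripts are in the pellet. From here on, an exon or intron level is in CPM of its own table after TMM scaling, and differences are on the log2 scale with the SE of the fit. In Ctrl, exon counts of 6 of 10 SR genes were lower in the insoluble than in the soluble fraction and 0 were higher (edgeR quasi-likelihood test, Benjamini-Hochberg adjusted p under 0.05), while 26.6% of the 17666 genes tested were lower and 51.0% passed in either direction. SRSF3, a small SR protein that couples splicing to mRNA export and 3' end processing, differed most. Its exon level was 405, 421 and 412 CPM in the supernatant and 188, 190 and 183 CPM in the pellet of Ctrl, a log2 difference of -1.14 ± 0.15 (SE, edgeR adjusted p = 1.4e-06). SRSF6, an SR protein with a pair of RNA recognition motifs, differed by -0.70 ± 0.13, and SRSF7, the SR protein with a zinc knuckle, by -0.55 ± 0.11. SRSF2 (-0.37), SRSF5 (-0.26) and TRA2A (-0.24) passed with smaller differences, and SRSF1 (-0.21), TRA2B (-0.20), SRSF11 (0.18) and SRSF4 (0.21) did not pass. With RK-33 alone 7 of 10 were lower in the pellet, where 30.4% of genes tested were lower, and SRSF7 differed by -1.02 ± 0.11. With the fractions of a replicate number paired as a block, TRA2A (edgeR adjusted p = 0.091) and SRSF5 (0.079) in Ctrl and TRA2B with RK-33 (0.076) no longer passed, and the other calls between fractions by exon or intron counts did.

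After NaAsO2, exon counts of all 10 SR genes were lower in the insoluble fraction, 6 of them by at least 2-fold, where 29.7% of genes tested were lower and 30.6% differed by at least 2-fold in either direction. SRSF6 had 210, 202 and 222 CPM in the supernatant and 91.7, 75.3 and 52.9 CPM in the pellet (log2 difference -1.52 ± 0.13, SE, edgeR adjusted p = 1.7e-09). SRSF1, the prototype SR protein and a factor in mRNA export and translation, had 94.6, 91.6 and 105 CPM in the soluble against 53.0, 46.7 and 21.5 CPM in the insoluble libraries (-1.26 ± 0.20). Replicate 3 was the lowest insoluble library for both genes. TRA2A (-1.18), SRSF7 (-1.15), SRSF3 (-1.14), TRA2B (-1.10) and SRSF5 (-0.99) differed by similar amounts, and SRSF11 (-0.71), SRSF4 (-0.51) and SRSF2 (-0.44) by less. Without replicate 3 of the NaAsO2 insoluble group the count stayed at 10 of 10, the difference was larger for SRSF3 (-1.39) than for SRSF6 (-1.30), and that of SRSF11 shrank to -0.41. The count was 7 in a fit of the compared libraries alone. In Combo, 8 of 10 were lower, where 52.1% of genes passed in either direction, and SRSF4 (-0.27) and SRSF11 (-0.06) did not pass.

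**Figure D2:**
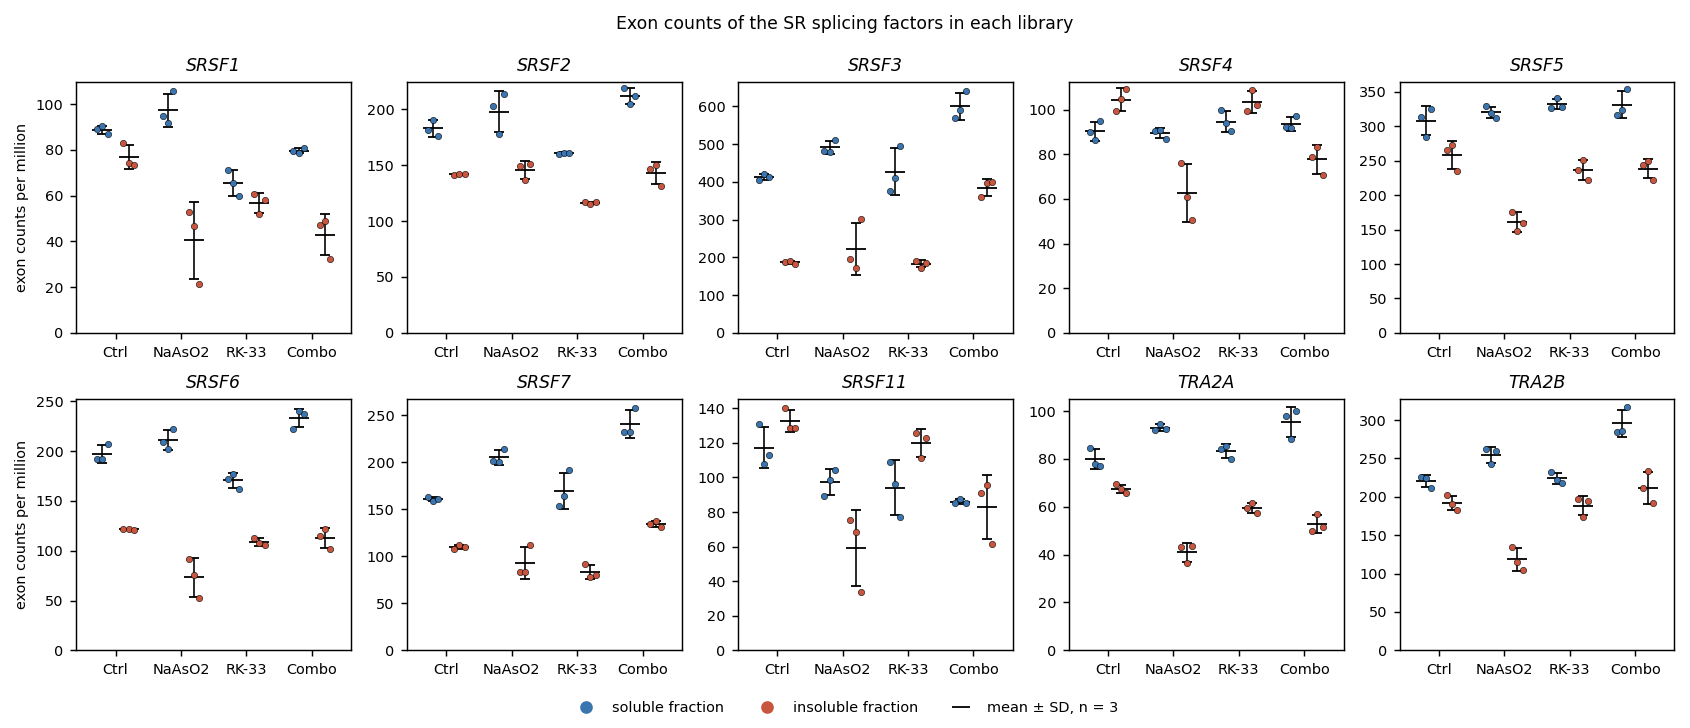
Exon level of each SR gene in CPM, by treatment and fraction, with a point for each library and a bar at the mean of 3. SRSF6 and SRSF1 have a lower mean in the NaAsO2 insoluble than in the soluble libraries. SRSF3 shows the Combo libraries above those of the other treatments in both fractions, as in 6.09% (soluble) and 2.54% (insoluble) of genes tested.

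After NaAsO2, exon levels changed mostly in the pellet. In the soluble fraction only SRSF7 passed against Ctrl, with a log2 change of 0.35 ± 0.11 (SE), at a share of 13.3% of genes tested, and it no longer passed in 23 of 36 refits that left out 1 library or both libraries of a replicate number. In the insoluble fraction 7 of 10 fell and 0 rose, where 21.8% of genes tested fell and 43.1% passed. SRSF11, an SR-related protein that binds the U2AF factor, had 140, 129 and 129 CPM in Ctrl and 75.1, 68.2 and 34.0 CPM after NaAsO2, and fell by 1.16 ± 0.20 on the log2 scale (edgeR adjusted p = 0.00013). SRSF1 fell by 0.92 ± 0.20 on the same scale. SRSF4 (-0.73), SRSF6 (-0.72), TRA2A (-0.72), TRA2B (-0.70) and SRSF5 (-0.68) fell within a narrow range, and SRSF7 (-0.25), SRSF2 (0.04) and SRSF3 (0.25) did not pass. Without replicate 3 of the NaAsO2 group the changes of SRSF1 and SRSF6 in the pellet were -0.56 and -0.48, and both still passed.

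The difference between the fraction effects of NaAsO2 and Ctrl was tested directly and was past the threshold for 8 of 10, all toward the soluble fraction, against 11.4% of genes tested in that direction and 22.3% in either. It was -1.05 ± 0.28 (SE) for SRSF1, -0.94 ± 0.13 for TRA2A and -0.91 ± 0.15 for TRA2B. For SRSF2 it was -0.08 ± 0.13. For SRSF3 the fraction difference was the same -1.14 with and without NaAsO2, and the difference between them was 0.00 ± 0.21. In a fit of the compared libraries alone, 1 of the 7 insoluble calls (TRA2A) and 3 of the 8 calls on the fraction effect (SRSF5, TRA2A and TRA2B) remained. Without replicate 3 of the NaAsO2 insoluble group, 8 rather than 7 genes passed in the pellet, and the differences of fraction effects were -0.67 for SRSF1, -0.91 for TRA2A and -0.54 for SRSF11. Over the 36 refits with libraries left out, 3 to 8 genes passed for the fraction effect, with TRA2A, TRA2B and SRSF5 left without both Ctrl replicate 2 libraries and 5 genes without those of Ctrl replicate 1 or 3. The intron share of the pellet and its nuclear RNA moved with this effect: MALAT1, NEAT1 and KCNQ1OT1, RNAs retained in the nucleus, summed to 6943 to 8830 CPM in Ctrl and 2351 to 3470 CPM in NaAsO2 insoluble libraries, and their part in the result was not tested.

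RK-33 alone was past the threshold for few of the genes. By edgeR, exon counts of 0 of 10 passed in the soluble fraction, where 5.33% of genes tested did. There, 2 had an unadjusted p under 0.05 and DESeq2 called 0. In the insoluble fraction SRSF7 (log2 change -0.40 ± 0.11, SE) and SRSF2 (-0.29 ± 0.09) fell, 2 of 10 where 8.19% of genes tested fell and 13.9% passed. By intron counts 0 of 7 passed the edgeR test in either fraction, at shares of 1.07% (soluble) and 2.8% (insoluble), with 1 and 2 genes at an unadjusted p under 0.05. SRSF5 stood at 0.53 ± 0.20 in the pellet (edgeR adjusted p = 0.17), and SRSF7 was lower, at -0.46 ± 0.13 in the soluble fraction (edgeR adjusted p = 0.096) and -0.44 ± 0.13 in the insoluble fraction (edgeR adjusted p = 0.053). DESeq2 called SRSF7 in both fractions. The difference between the fraction effects of RK-33 and Ctrl passed for 0 of 10 genes by exon counts (edgeR, 2.18% of genes tested), where 1 gene, SRSF7, had an unadjusted p under 0.05 and was called by DESeq2. Without replicate 3 of the NaAsO2 insoluble group, which shares the estimate of spread, SRSF7 passed by introns in both fractions and SRSF5 in the pellet, SRSF1 fell by exon counts in the soluble fraction (-0.43), and SRSF7 passed for the fraction effect. Over the 36 refits with libraries left out, 0 to 1 genes passed by introns in the supernatant and 0 to 2 in the pellet, and by exon counts 0 to 1 and 0 to 3.

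Combo was compared with each single compound. By intron counts, 4 of 7 SR genes were higher in Combo than in NaAsO2 in both fractions, and they were SRSF3, SRSF5, SRSF7 and TRA2B each time. Of the 17406 genes tested, 9.54% were higher in the supernatant and 13.1% in the pellet. SRSF7 had 50.04, 52.2 and 56.3 intron CPM after NaAsO2 and 132, 136 and 140 CPM after Combo in the soluble fraction. In the pellet, SRSF7 had 44.5, 46.3 and 41.1 CPM and 119, 134 and 127 CPM. In each fraction the 3 Combo libraries lay above the other 9, as in 11.3% (supernatant) and 9.29% (pellet) of genes tested. The other 9 lay between 37.4 and 57.5 CPM in the supernatant and between 33.5 and 50.3 CPM in the pellet. The log2 differences from NaAsO2 were 1.36 ± 0.13 (SE, edgeR adjusted p = 6.2e-09) in the supernatant and 1.53 ± 0.13 (edgeR adjusted p = 5.2e-10) in the pellet.

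SRSF3 had 124, 89.4 and 122 intron CPM after NaAsO2 and 290, 316 and 276 CPM after Combo in the soluble fraction. In the pellet it had 84.0, 57.7 and 36.3 CPM after NaAsO2 and 184, 192 and 172 CPM after Combo. The differences were 1.40 ± 0.18 in the supernatant and 1.61 ± 0.18 in the pellet on the log2 scale. The lowest NaAsO2 value was that of replicate 3, and every Combo library was above the other 9 of its fraction.

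SRSF5, an SR protein of the same subgroup as SRSF4 and SRSF6, had few intron counts. It stood at 25.02, 23.8 and 32.3 CPM after NaAsO2 and 56.0, 64.1 and 46.9 CPM after Combo in the soluble fraction, and at 16.5, 19.6 and 35.9 CPM against 60.1, 65.2 and 57.8 CPM in the pellet. The log2 differences were 1.04 ± 0.21 and 1.37 ± 0.20 (SE). Here the NaAsO2 replicate 3 of the pellet was the highest of its group.

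TRA2B, a sequence-specific activator of exon inclusion, had 209, 179 and 193 intron CPM after NaAsO2 and 291, 318 and 304 CPM after Combo in the soluble fraction. In the pellet it had 150, 141 and 98.8 CPM after NaAsO2 and 263, 311 and 289 CPM after Combo. The log2 differences were 0.66 ± 0.14 in the supernatant and 1.14 ± 0.14 in the pellet. Its paralog TRA2A differed by 0.33 ± 0.14 and 0.27 ± 0.14, SRSF11 by 0.11 and 0.22 and SRSF4 by -0.14 and -0.29, and none of these passed. The calls on SRSF3, SRSF5, SRSF7 and TRA2B were kept at the adjusted p in 44 of 44 alternative fits in both fractions. SRSF7 stood between 1.25 and 1.61 in the supernatant and between 1.42 and 1.71 in the pellet. Many of these fits left out only libraries outside the compared groups. Such libraries enter a comparison only through scaling, filtering and the shared spread, so these fits say little about the call.

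**Figure D3:**
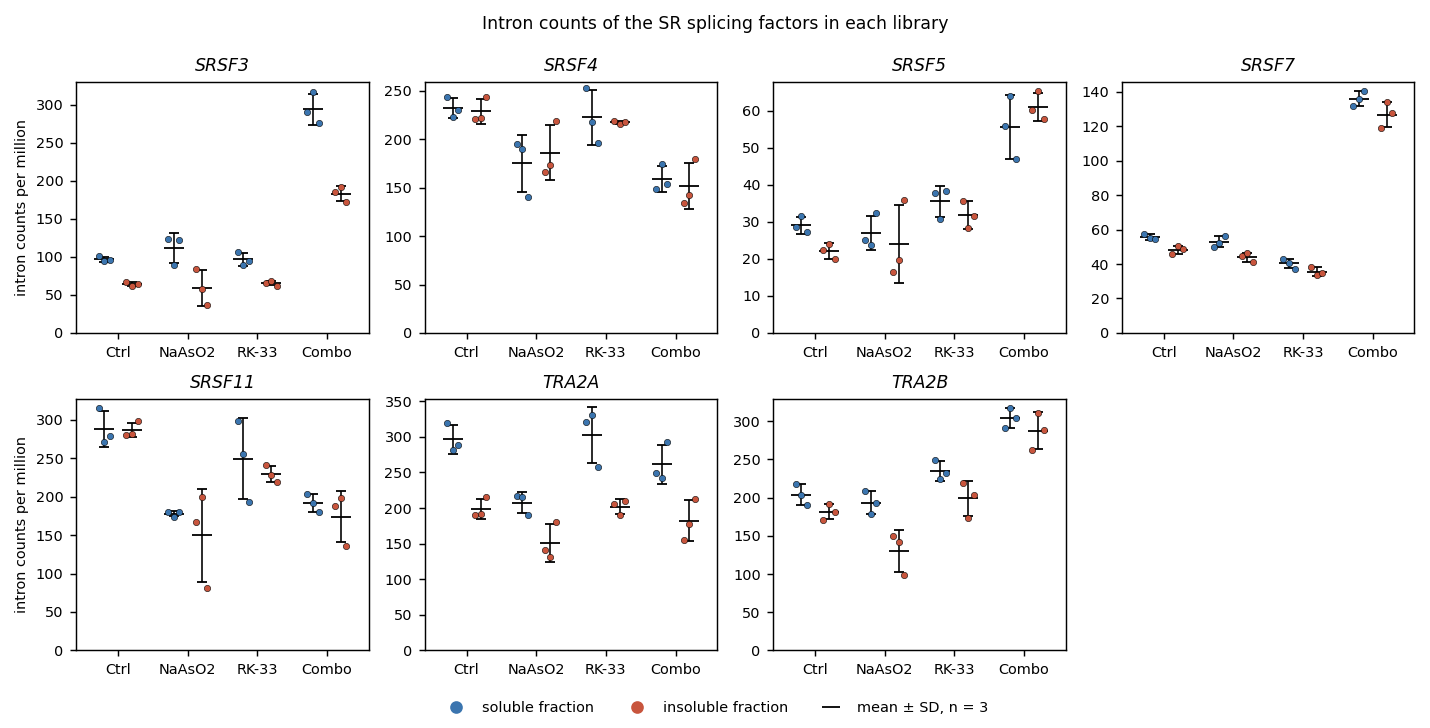
Intron level of the 7 SR genes with intron counts in CPM, by treatment and fraction, with a point for each library and a bar at the mean of 3. For SRSF7, the 3 Combo libraries lie above the other 9 of their fraction, as in 11.3% (soluble) and 9.29% (insoluble) of genes tested.

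Against RK-33 alone the same 4 genes were higher in Combo by intron counts in both fractions, at shares of 16.5% of genes tested in the supernatant and 15.6% in the pellet. In the soluble fraction the log2 differences were 1.75 ± 0.13 (SE) for SRSF7, 1.60 ± 0.18 for SRSF3, 0.65 ± 0.20 for SRSF5 and 0.37 ± 0.14 for TRA2B. In the pellet they were 1.83 ± 0.12, 1.49 ± 0.18, 0.94 ± 0.19 and 0.53 ± 0.14. SRSF4 was lower in both fractions, by -0.49 ± 0.15 and -0.52 ± 0.14. In the supernatant, TRA2B kept its call in 21, SRSF5 in 39 and SRSF4 in 40 of 44 alternative fits, and SRSF3 and SRSF7 in all 44. Fits without libraries outside the compared groups are again among them. Both comparisons share the Combo libraries and are not independent of each other.

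The nuclear RNAs moved with Combo as well. MALAT1, NEAT1 and KCNQ1OT1 summed to 9089 to 11928 CPM in Combo and 6293 to 8548 CPM in NaAsO2 soluble libraries, and to 5453 to 6252 CPM and 2351 to 3470 CPM in the insoluble ones, and the part of nuclear RNA in the intron differences was not tested. Against RK-33 alone, the sums overlapped in the soluble fraction (8114 to 12719 CPM in RK-33) and were lower in Combo in the pellet (6576 to 7434 CPM in RK-33). KCNQ1OT1, an unspliced antisense transcript, was higher in Combo at 47.8 ± 25.9 CPM in the supernatant and 136 ± 22.3 CPM in the pellet (SD, n = 3), against 14.8 ± 0.545 and 64.3 ± 4.36 CPM after RK-33 alone.

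Read without a test, the Combo libraries were all above the other 9 libraries of their fraction by intron CPM for 4 of 7 genes, SRSF3, SRSF5, SRSF7 and TRA2B, where 11.3% of genes in the supernatant and 9.29% in the pellet had this property. By exon CPM this held for SRSF3, SRSF6, SRSF7 and TRA2B in the soluble fraction (6.09% of genes) and for SRSF3 and SRSF7 in the insoluble fraction (2.54%).

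By exon counts, Combo and NaAsO2 differed in the pellet. In the soluble fraction 0 of 10 passed by edgeR, where 6.46% of genes tested did, with 1 at an unadjusted p under 0.05 and 0 called by DESeq2, and the log2 differences ran from -0.29 ± 0.20 in SRSF1 to 0.29 ± 0.14 in SRSF3. In the insoluble fraction 6 of 10 were higher and 0 lower, where 6.88% of genes tested were higher and 13.8% passed, and the median over the 10 was 0.51 against 0.01 over all genes. TRA2B had 135, 116 and 105 CPM after NaAsO2 and 211, 233 and 192 CPM after Combo (log2 difference 0.84 ± 0.10, SE, edgeR adjusted p = 1.8e-05). SRSF3 (0.79 ± 0.15), SRSF6 (0.62), SRSF5 (0.56), SRSF7 (0.54) and TRA2A (0.37) were also higher, and SRSF1 (0.07) and SRSF2 (-0.03) were among the 4 that did not pass. The Combo pellet mean was below that of Ctrl for SRSF5 (239 and 258 CPM), SRSF6 (113 and 121) and TRA2A (52.8 and 67.5). It was above that of Ctrl for SRSF3 (385 and 187 CPM), SRSF7 (134 and 110) and TRA2B (212 and 192). Combo was not tested against Ctrl. The difference between the fraction effects of Combo and NaAsO2 passed for 0 of 10 genes (0.357% of genes tested), with TRA2B nearest at 0.62 ± 0.15 (edgeR adjusted p = 0.054) and 6 with an unadjusted p under 0.05. DESeq2 called TRA2B and SRSF5. Without replicate 3 of the NaAsO2 insoluble group, SRSF3 and SRSF7 passed in the soluble fraction, SRSF3 passed for the fraction effect, and SRSF6 was higher by 0.39 in the pellet. Over the 36 refits with libraries left out, 0 to 2 genes passed in the soluble and 4 to 8 in the insoluble fraction, and 0 to 2 for the fraction effect. In a fit of the compared libraries alone 0 of the 6 insoluble calls remained and 5 genes passed in the soluble fraction, SRSF1, SRSF3, SRSF6, SRSF7 and TRA2B.

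Against RK-33 alone, exon counts of SRSF7 (log2 difference 0.51 ± 0.11, SE), SRSF2 (0.40 ± 0.09) and TRA2B (0.40 ± 0.10) were higher in Combo in the soluble fraction. These were 3 of 10, where 2.9% of genes tested were higher and 3.65% passed. Over the 36 refits with libraries left out, 0 to 5 passed: 0 without both RK-33 replicate 1 libraries, SRSF2 alone without both Combo replicate 3 libraries, and SRSF3 and SRSF6 as well without replicate 3 of the NaAsO2 insoluble group. In the insoluble fraction SRSF3 (1.07 ± 0.15), SRSF7 (0.69 ± 0.11) and SRSF2 (0.30 ± 0.09) were higher and SRSF4 was lower (-0.41 ± 0.11), 4 of 10 where 7.12% passed. SRSF3 and SRSF7 were kept in 43 and SRSF2 and SRSF4 in 22 of 43 alternative fits, which include fits without libraries outside the compared groups.

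**Figure D4:**
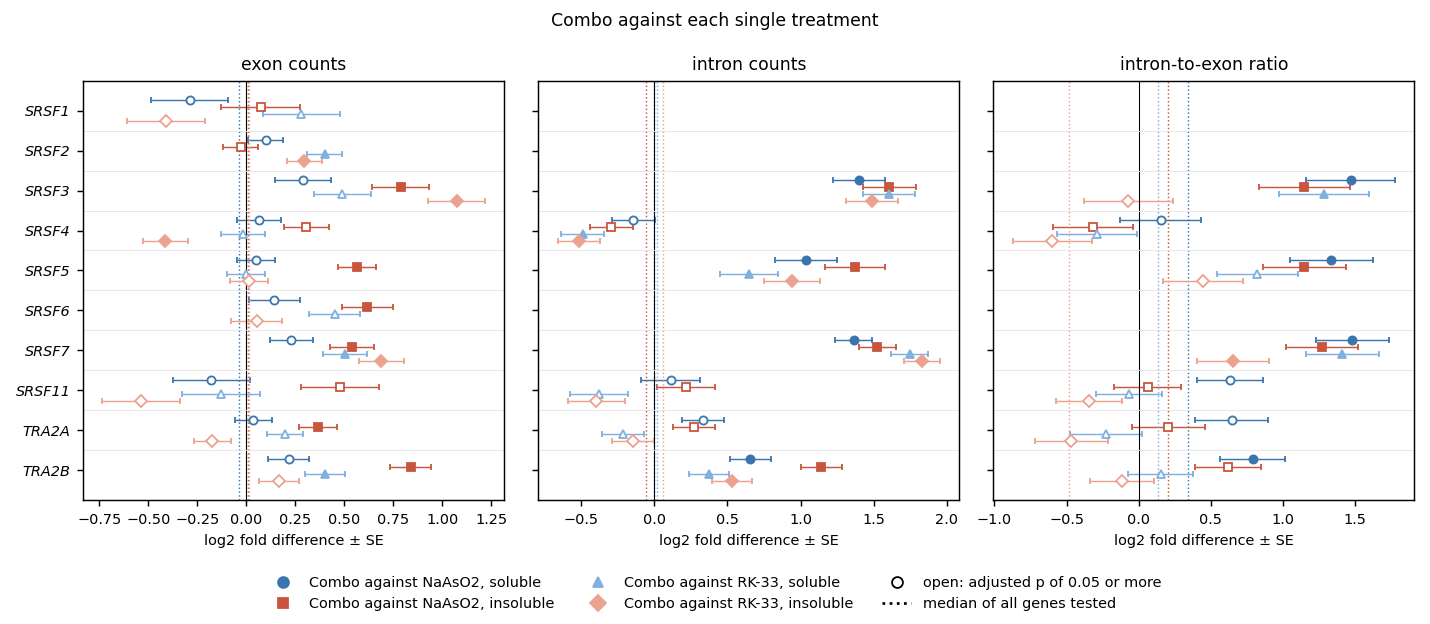
Log2 differences of Combo from NaAsO2 and from RK-33 for exon counts, intron counts and the intron-to-exon ratio of each SR gene, in the soluble and insoluble fraction, with bars of 1 SE from the edgeR fit. Open symbols did not pass, and dotted lines mark the medians of all genes tested. Against NaAsO2, SRSF3, SRSF5 and SRSF7 lie above 1 by intron counts in both fractions, where SRSF4 lies below 0.

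A combined effect, the difference between Combo and RK-33 minus that between NaAsO2 and Ctrl on the log2 scale, was tested for each fraction, a comparison chosen after the data were seen. By intron counts it was past the threshold for SRSF7 at 1.82 ± 0.18 (SE) and SRSF3 at 1.40 ± 0.25 in the soluble fraction, 2 of 7 where 3.61% of genes tested passed. In the pellet SRSF7 reached 1.96 ± 0.18, SRSF3 1.58 ± 0.25 and TRA2B 1.01 ± 0.20, 3 of 7 where 11.9% passed. SRSF5 missed it, at 0.75 ± 0.30 and 0.84 ± 0.29. By exon counts 0 of 10 passed the edgeR test in the soluble fraction (2.09% of genes tested, with 1 gene at an unadjusted p under 0.05, 0 called by DESeq2, and SRSF6 past the threshold without replicate 3 of the NaAsO2 insoluble group) and 6 in the insoluble fraction (11.6%, and 6.22% with a value above 0), where SRSF7 stood at 0.94 ± 0.16, TRA2B at 0.86 ± 0.15 and SRSF3 at 0.82 ± 0.21. In a fit of the compared libraries alone, only SRSF7 of these 6 remained, while all the intron calls on the combined effect did.

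The fractions were also compared by intron counts. Against the total of the intron table, SRSF3 and TRA2A were lower in the pellet in all 4 treatments, with log2 differences of -0.59 and -0.58 in Ctrl, -0.89 and -0.46 after NaAsO2, -0.57 and -0.59 after RK-33, and -0.68 and -0.52 after Combo. TRA2B joined them after NaAsO2 at -0.57. The shares of genes tested that passed were 39.6%, 22.8%, 47.8% and 29.9% in this order, and those that were lower were 21.4%, 10.9%, 24.8% and 16.3%. With the sum of exon and intron counts as library size, 1 of these 9 calls remained, that of SRSF3 after NaAsO2, so the other 8 depend on the scaling of the intron table to its own total. After NaAsO2, SRSF11 and TRA2A introns fell against Ctrl in the soluble fraction, by 0.70 and 0.52 on the log2 scale, where 3.42% of genes fell and 5.27% passed. Over the 36 refits with libraries left out, 0 to 3 genes passed there, and 13 refits moved the count by over 1.5 times, among them each Ctrl and each NaAsO2 soluble library. In the pellet SRSF11 fell by 0.94, TRA2B by 0.48 and TRA2A by 0.40, where 12.6% of genes fell and 31.3% passed. TRA2B did not pass without replicate 3 of the NaAsO2 group (-0.31), and 1 of the 3, SRSF11, passed without both Ctrl replicate 2 libraries. For the fractions in Ctrl, 0 to 3 genes passed over the refits. For the differences between fraction effects 0 of 7 genes passed by intron counts in edgeR and DESeq2, at shares of 1.86% for NaAsO2 against Ctrl and 0.0% for RK-33 against Ctrl and for Combo against NaAsO2, with 1 gene, TRA2B in the last, at an unadjusted p under 0.05.

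The ratio of intron to exon counts was computed within each library as intron counts per 100 exon counts, and tested as the log2 difference between the tables within a library. In Ctrl it ran from 2.68 in SRSF5, 6.68 in SRSF3 and 9.85 in SRSF7 over 26.4 in TRA2B, 69.8 in SRSF11 and 73.3 in SRSF4 to 106 in TRA2A in the soluble fraction, means of 3 libraries. The ratio of a gene followed the intron share of the library: over 24 libraries the mean log2 ratio of the 7 genes and the log2 ratio of all intron to all exon counts had a Pearson r of 0.931, with 0.669 for SRSF5 and 0.924 for TRA2B at the ends. Differences of ratios are therefore given beside the median over all 13116 genes tested.

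In Combo against NaAsO2 the ratio of 4 of 7 genes rose in the soluble fraction, where 11.4% of genes tested rose and their median was 0.34. SRSF7 had 5.28, 6.78 and 5.22 intron counts per 100 exon counts after NaAsO2 and 13.9, 15.3 and 19.2 after Combo (log2 difference 1.48 ± 0.25, SE, edgeR adjusted p = 0.00016). SRSF3 rose by 1.47 ± 0.31, from 5.42, 4.84 and 4.75 to 12.5, 13.99 and 15.2, and SRSF5 rose by 1.34 ± 0.29. TRA2B rose by 0.79 ± 0.23, and TRA2A (0.65), SRSF11 (0.63) and SRSF4 (0.15) did not pass. In the insoluble fraction, with a median of 0.20 over all genes and 9.06% rising, SRSF7 (1.27 ± 0.25), SRSF3 (1.15 ± 0.32) and SRSF5 (1.15 ± 0.29) rose. The mean insoluble ratio of SRSF3 was 15.8 in Combo and 15.7 in Ctrl. It was 30.9 and 20.1 for SRSF7 and 8.40 and 3.91 for SRSF5. SRSF3 no longer passed there without replicate 3 of the NaAsO2 group (log2 difference 0.74), SRSF7 alone passed without both libraries of NaAsO2 replicate 2 or of Combo replicate 2, and 0 passed in a fit of the compared libraries alone. The TRA2B call in the supernatant was kept in 10 of 18 alternative fits and those of SRSF3, SRSF5 and SRSF7 there in 18.

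Against RK-33 alone the ratio of SRSF7 (1.41 ± 0.25) and SRSF3 (1.28 ± 0.31) was higher in Combo in the soluble fraction, where 11.2% of genes tested passed and the median was 0.13. In the pellet SRSF7 was higher by 0.65 ± 0.25 while the median of all genes was -0.48, where 33.3% of genes passed and 30.3% were lower. The combined effect on the ratio passed for SRSF7 in both fractions, at 2.19 ± 0.36 and 1.31 ± 0.35, and for SRSF3 in the soluble fraction at 1.69 ± 0.44, at shares of 5.02% and 2.0% of genes tested and medians of 0.54 and 0.17. The SRSF7 call was kept in 8 of 18 alternative fits against RK-33 in the pellet, and in 30 and 10 of 30 for the combined effect in supernatant and pellet and that of SRSF3 in 17 of 30. With libraries left out, 0 to 2 genes passed for the combined effect in the pellet and 1 to 3 in the supernatant, and SRSF7 was lost against RK-33 in the pellet in 10 of 12 such refits. By ratio, the Combo libraries of SRSF3, SRSF5 and SRSF7 lay above the other 9 libraries in the soluble fraction (8.28% of genes) and those of SRSF7 alone in the insoluble fraction (2.9%).

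**Figure D5:**
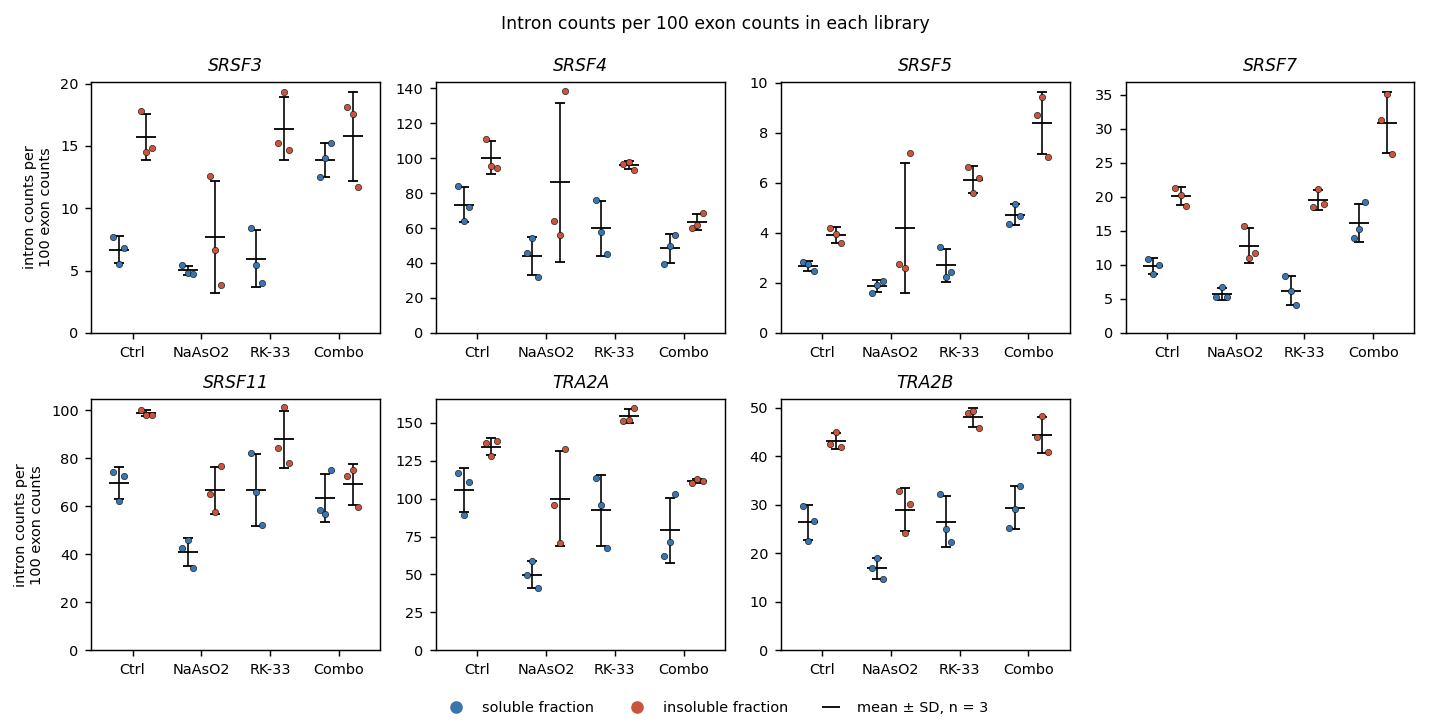
Intron counts per 100 exon counts of the 7 SR genes, by treatment and fraction, with a point for each library and a bar at the mean of 3. The ratio is higher in the pellet than in the supernatant for most genes, and SRSF7 has its highest values in the Combo pellet, at 26.3 to 35.1.

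Between fractions the ratio passed in the direction of the pellet for some of the SR genes in each treatment. In Ctrl 3 of 7 passed, SRSF3 (log2 difference 1.24 ± 0.31, SE), SRSF7 (1.03 ± 0.25) and TRA2B (0.72 ± 0.23), where 35.6% of genes were higher, and the median was 0.54 over the 7 and 0.55 over all genes. After NaAsO2 6 of 7 passed (22.5% of genes, medians 0.87 over the 7 and 0.26 over all genes), after RK-33 6 (49.1%, medians 0.87 and 0.76) and after Combo 2, SRSF5 and SRSF7 (13.8%, medians 0.53 and 0.12). With the fractions of a replicate number paired as a block in limma, TRA2B in Ctrl, SRSF4 and SRSF11 after NaAsO2, SRSF4 after RK-33 and SRSF5 after Combo no longer passed (adjusted p from 0.053 to 0.090), which left 12 of 17 calls. With libraries left out, 1 to 6 genes passed after NaAsO2, SRSF7 alone without both NaAsO2 replicate 3 libraries, and 0 to 3 after Combo, 0 without both libraries of Combo replicate 1 or 2. Of the nuclear RNAs, the median exon level over the 12 libraries of a fraction was higher in the pellet for NEAT1 (494 CPM soluble, 1561 CPM insoluble). With overlapping libraries, it was also higher for KCNQ1OT1 (15.5 and 58.9 CPM) and lower for MALAT1 (10117 and 4351 CPM). The part of these RNAs in the ratio differences between fractions was not tested. After NaAsO2 the ratio fell against Ctrl for TRA2A (-1.09), SRSF7 (-0.78) and SRSF11 (-0.78) in the soluble fraction, where 15.2% of genes fell and the median was -0.38, and 0 to 5 genes passed with libraries left out, 0 without both Ctrl replicate 1 libraries. In the pellet it fell for SRSF3 (-1.16), SRSF7 (-0.66), SRSF11 (-0.58) and TRA2B (-0.58), where 43.2% fell and the median was -0.68, so that the last 3 fell by no more than the median gene and stood at 0.14, 0.22 and 0.22 when each table was scaled by itself. SRSF3 alone passed there in 7 of 12 refits with libraries left out, and its change was -0.76 without replicate 3 of the NaAsO2 group. With this scaling the RK-33 differences between fractions also turned below 0 for SRSF4 (-0.18), TRA2A (-0.12) and TRA2B (-0.017). RK-33 alone passed for the ratio of 0 of 7 genes in each fraction by edgeR, at shares of 0.114% and 1.6% of genes tested, and 1 gene in each had an unadjusted p under 0.05, while limma also called 0. For the differences between fraction effects in the ratio, 0 of 7 genes passed by edgeR or limma and 0 had an unadjusted p under 0.05, at shares of 6.66% for NaAsO2 against Ctrl and 0.0% for the other comparisons.

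Other genes of the pathway were read in lists of their own, by intron counts in Combo against NaAsO2. Of all genes tested, 9.54% were higher and 4.83% lower in the supernatant, and 13.1% were higher and 13.5% lower in the pellet. Of the lists, SRSF10 of 3 other SR genes tested was lower in the pellet (-0.90), and the others did not pass in either fraction. Of 9 kinases and import factors of SR proteins, only CLK1 was higher, by 1.58 in the supernatant and 1.67 in the pellet on the log2 scale. CLK1, which phosphorylates SR proteins and itself has a retained intron, was also higher by exon counts, by 1.17 and 1.21, and its relative CLK4 was the one with the smallest p among 3 that were lower by introns in the pellet (-0.98).

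Of 20 SR-related genes 1 was higher by introns in each fraction, and it was RSRC2 (1.10 and 0.77), while 1 was lower in the supernatant and 3 in the pellet, ARGLU1 with the smallest p (-0.78 and -0.73). Of 14 hnRNP genes, whose proteins often oppose SR proteins at exons, 3 were higher in the supernatant and 4 in the pellet, and 1 was lower in each. HNRNPA2B1 differed by 1.501 and 1.78, and HNRNPR was lower (-0.42 and -0.51). Of 13 genes of nonsense-mediated decay and the exon junction complex, EIF4A3, the helicase that anchors the complex, was higher in both fractions (1.47 and 1.33), and 1 was lower in the supernatant and 4 in the pellet. The median of the 7 SR genes was 0.66 in the supernatant and 1.14 in the pellet, against 0.13 and 0.14 for the hnRNP list, -0.03 and -0.20 for SR-related genes, -0.09 and -0.19 for kinases and import factors, -0.16 and -0.32 for decay and junction genes, -0.27 and -0.55 for the other SR genes, and 0.00 and -0.06 for all genes. The lists were not tested against each other.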

How the data were processed

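RNA of the soluble and insoluble fractions of U2OS lysates was sequenced from both ends after rRNA depletion, with 3 replicates in each of 8 groups. The authors aligned reads to GRCh38.p13 with STAR 2.7.2b and deposited raw counts of uniquely aligned fragments per gene, made with featureCounts 1.5.3 for merged exons and, separately, for introns (gene minus merged exons, minimum overlap 25 bases) of GENCODE release 40. Counting used no strand although libraries were directional. Gene models and sequences were read from the same assembly with GENCODE release 44. The depth per library, 10968059 to 19799530 counts, sets the counting error.

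Exon and intron counts were each scaled with TMM for genes whose mean reached 1 CPM, and a single edgeR model over the 8 groups and 24 libraries gave quasi-likelihood tests. The ratio was tested in edgeR with both tables side by side, a term for each library and an intron-by-group term, with the exon plus intron total as library size of both. P-values were Benjamini-Hochberg adjusted over all genes tested, with a threshold of 0.05. They rest on a spread between libraries of a group that is estimated jointly over all 8 groups, not on the compared groups alone. The NaAsO2 insoluble libraries agreed least with each other, so this spread can understate the error in comparisons with that group. The study's methods describe both fractions as made from a common lysate and compare them in pairs, so fractions with a shared replicate number were paired as a block in an alternative fit, although the labels do not name the lysate and their deviations from the group means correlated by -0.284 to 0.103 over 12 pairs, 1 of them above 0.1. Scripts were tested on simulated data with known changes. The correlation profile used the log2 ratio with 0.5 added to both counts.

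All 10 SR genes were named, and of each other list the gene with the smallest p in each direction among those that passed. The genes and lists were chosen with earlier results of these data known. Alternatives were RLE factors, library size alone, the likelihood ratio test that the study's methods name, DESeq2, limma on the log2 ratio, no filter, a mean of at least 10 counts, a 2-fold limit, each table scaled by itself, compared groups alone, a replicate block, and each library or lysate left out. The combined effect and the exon plus intron total as library size for introns were chosen after seeing the data. The circRNA tables were not used here. Tests used edgeR 4.0.16, DESeq2 1.42.0 and limma 3.58.1 under R 4.3.3, and tables and plots used pandas 2.3.3, numpy 2.4.6 and matplotlib 3.10.9 under Python 3.11.15.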

Additional observations from a re-analysis of the deposited data

Results flagged for a closer look

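Each of these values is a difference between the effects of a treatment in 2 settings that was past the threshold in a direct edgeR test. By exon counts, the fraction effect (insoluble against soluble) differed between NaAsO2 and Ctrl by -1.05 for SRSF1, -0.94 for TRA2A, -0.91 for TRA2B, -0.89 for SRSF11, -0.82 for SRSF6, -0.73 for SRSF5, -0.72 for SRSF4 and -0.60 for SRSF7 on the log2 scale. In Ctrl, SRSF4 and SRSF11 stood above 0 in the pellet, at 0.21 and 0.18, without passing the test, and after NaAsO2 both were lower there.

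The effect of NaAsO2 was also compared between cells with and without RK-33, a comparison chosen after the data were seen. By exon counts in the insoluble fraction the difference was 0.94 for SRSF7, 0.86 for TRA2B, 0.82 for SRSF3, 0.78 for SRSF6, 0.69 for SRSF5 and 0.55 for TRA2A. By intron counts it was 1.82 for SRSF7 and 1.40 for SRSF3 in the soluble fraction, and 1.96 for SRSF7, 1.58 for SRSF3 and 1.01 for TRA2B in the insoluble fraction. By the intron-to-exon ratio it was 2.19 for SRSF7 and 1.69 for SRSF3 in the soluble fraction, and 1.31 for SRSF7 in the insoluble fraction. SRSF7 is thus in each of these sets, and its introns were past the threshold in both fractions. The sets rest on the same counts and are not independent of each other. In a fit of the compared libraries alone, only SRSF7 of the exon calls remained. By ratio in the pellet, 0 to 2 genes passed with libraries left out.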

How the results depend on the processing

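Numbers of SR genes that passed were summed over the comparisons of a kind: fractions, treatments, differences of fraction effects and combined effects. By exon counts they were 31 of 40, 23 of 80, 8 of 30 and 6 of 20. They became 10, 2, 1 and 0 with a 2-fold limit. The differences of fraction effects became 5 with library size alone and 5 without a filter, where treatments became 14, and 4 in a fit of the compared groups alone, where combined effects became 3. By intron counts they were 9 of 28, 23 of 56, 0 of 21 and 5 of 14. A 2-fold limit left 0 and 11 of the first 2 and kept the last at 5, library size alone gave 20 for fractions and the exon plus intron total gave 1. By ratio they were 17 of 28, 17 of 56, 0 of 21 and 3 of 14. A 2-fold limit gave 7 and 10 for the first 2, and each table scaled by itself gave 3 for differences of fraction effects. With the last, 6 differences reversed, for fractions with RK-33 in SRSF4 (-0.18), TRA2A (-0.12) and TRA2B (-0.017), and for NaAsO2 against Ctrl in the insoluble fraction in SRSF11 (0.22), SRSF7 (0.14) and TRA2B (0.22). The cause of the other changes was not tested. The likelihood ratio test and, for exon and intron counts, DESeq2 and RLE factors stayed within 1.5 times of these counts.

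With a library or lysate left out, the exon counts ranged over 28 to 35, 16 to 32, 3 to 10 and 4 to 8, and the intron counts over 7 to 11, 18 to 30, 0 and 5 to 7. For exon and intron counts every comparison was refitted, also where the left-out library lies outside the compared groups. Those of the ratio, refitted only for comparisons that a left-out library enters, ranged over 12 to 18, 11 to 19, 0 and 1 to 4. The lowest exon value for differences of fraction effects, 3, came without the Ctrl replicate 2 lysate. The highest, 10, was reached without replicate 3 of the NaAsO2 insoluble group and also without the Combo replicate 3 lysate. Treatments with a shared replicate number were not taken as pairs: their deviations from the group means correlated by -0.311 to 0.654, and 8 of 36 pairs exceeded 0.1. With a replicate block the exon counts were 28, 23, 8 and 6, the intron counts 9, 23, 0 and 5, and the ratio counts, in limma, 12, 17, 0 and 2, against 18, 18, 0 and 4 in limma without it. Beside the fraction calls named in the report, the block ended those of SRSF2 by exon counts (Combo against RK-33, pellet) and of SRSF7 by ratio (combined effect, pellet), and no other. Introns with few counts, such as SRSF5, limit what can be detected.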

Other observations

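Of the 13116 genes with a tested ratio, the 5 whose log2 intron-to-exon ratio was most like the mean of the 7 SR genes over the 24 libraries were YPEL5 (Pearson r = 0.980), ANXA2 (0.972), STMN1 (0.971), JPT1 (0.971) and SUB1 (0.970). These points share their libraries, and the same profile had an r of 0.931 with the intron share of the library as a whole. Among pairs of SR genes, the log2 ratios correlated by 0.312 for SRSF3 and SRSF4 at the lowest and by 0.928 for SRSF11 and TRA2A at the highest.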
